A study of Mus musculus with 2 samples.

Results

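Antigen presentation genes encode the MHC class I and class II molecules, the proteins that load them with peptide, their transactivators and the surface molecules that costimulate T cells. On the array used here, 86 probe sets carried exactly 1 gene symbol from this group, which was defined as every symbol that starts with H2- together with B2m, Tap1, Tap2, Tapbp, Tapbpl, Erap1, Calr, Canx, Pdia3, Nlrc5, Ciita, Cd74, Cd80, Cd86, Cd40, Cd1d1, Ifi30 and Mr1. They represent 41 of the 18194 genes on the array, chosen by name and not by measured value, though with earlier results of these data known. The 41 genes comprise 2 classical and 13 non-classical class I heavy chains or class I-like molecules, 9 class I assembly and loading genes, 5 class II peptide-presenting chains, 6 class II loading genes, 2 transactivators, 3 costimulation genes and H2-Ke6, an MHC-linked gene that presents no antigen. RefSeq lists H2-Q5, H2-Bl and H2-D4, counted here as non-classical heavy chains, and the class II gene H2-Ea as transcribed pseudogenes.

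The cells were thioglycolate-elicited peritoneal macrophages, inflammatory macrophages drawn into the peritoneal cavity by an irritant medium, from 8-week-old male C57BL6 mice. After growth to 80% confluence they were left untreated or given 100 ng/ml CSF1 for 12 h, where CSF1 (macrophage colony-stimulating factor) is the growth factor ligand of the receptor Csf1r. Each condition was read on 1 Affymetrix Mouse Genome 430 2.0 array. The precision is limited by the number of arrays: differences have no replicate check and were not tested between the conditions, and whether the same mice gave both samples is not stated in the labels.

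MHC class I molecules pair a heavy chain with the light chain B2m, receive peptides that the Tap1 and Tap2 transporter moves into the endoplasmic reticulum, and show them to CD8 T cells. Class II molecules pair an alpha and a beta chain, travel with the invariant chain Cd74 to endosomes, exchange its remnant for peptide with the help of H2-DM, and show the peptide to CD4 T cells. Macrophages carry both, and interferon gamma is the classical inducer of class II in them, acting through the transactivator Ciita, while Nlrc5 is the corresponding transactivator of class I genes.

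The heavy chain genes, B2m and class II genes are known for a shared promoter module, in which an X box and a Y box are bound by RFX, CREB and NF-Y proteins that recruit Ciita or Nlrc5. RefSeq promoter windows of the build GRCm38.p6, from 250 bases before to 50 after an annotated start, were matched for 26 of the 41 genes. The letters TGANG, followed on the same strand by ATTGG starting 24 to 27 bases further on, were searched on both strands, and these letters were chosen after the windows had been read. They occurred in windows of 8 of the 26 genes, against 1.35% of the 27025 genes with a window (1.19% of 32851 windows). The spacing limits equal the shortest and longest spacing in the stretches shown, 24 in H2-Eb1 and 27 in H2-Eb2. The share over all genes is therefore no independent comparison. ATTGG alone was found in 20 of the 26 genes and in 41.1% of all genes, so it is common by itself. The stretches are shown because they hold these letters in both class I and class II genes, with TGANG and ATTGG in capitals. In B2m the first capitals mark GAAA followed by any 2 bases and GAAA again, an interferon-response type element, which windows of 2 of the 26 genes (B2m and Erap1) and of 3.99% of all genes hold on either strand. A match is a description of the letters only.
H2-K1: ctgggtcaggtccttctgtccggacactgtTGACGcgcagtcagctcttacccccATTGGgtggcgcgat
H2-D1: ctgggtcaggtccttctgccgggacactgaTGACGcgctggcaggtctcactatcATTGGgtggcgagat
H2-M3: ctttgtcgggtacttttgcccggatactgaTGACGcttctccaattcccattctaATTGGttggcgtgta
B2m: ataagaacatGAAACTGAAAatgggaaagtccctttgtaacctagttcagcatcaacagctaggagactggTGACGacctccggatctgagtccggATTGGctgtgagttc
H2-Aa: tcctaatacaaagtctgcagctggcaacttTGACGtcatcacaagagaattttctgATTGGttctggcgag
H2-Eb1: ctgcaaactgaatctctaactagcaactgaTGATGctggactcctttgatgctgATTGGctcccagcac
H2-Eb2: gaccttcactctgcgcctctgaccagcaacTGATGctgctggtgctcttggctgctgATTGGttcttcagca
H2-DMb2: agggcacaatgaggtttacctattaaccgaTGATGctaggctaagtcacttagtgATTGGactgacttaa
These stretches lie upstream of the annotated starts, at chr17:34000349-34000418 (minus strand) for H2-K1, chr17:35262963-35263032 (plus strand) for H2-D1, chr17:37270158-37270227 (plus strand) for H2-M3, chr2:122147538-122147648 (plus strand) for B2m, chr17:34287857-34287927 (minus strand) for H2-Aa, chr17:34305754-34305822 (plus strand) for H2-Eb1, chr17:34325518-34325589 (plus strand) for H2-Eb2 and chr17:34145104-34145173 (plus strand) for H2-DMb2. The 70-base stretches of H2-K1 and H2-D1 were identical at 59 positions without a gap.

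The deposited values are linear signals in arbitrary units, and each pair of values below gives the signal without and then with CSF1. The number after it is the log2 ratio of treated over untreated cells, so that -0.58 is 1.5-fold lower. A background level of 138.96 units was taken from genes of other tissues. Of the 41 genes, each read on its brightest probe set (by the mean of both log2 signals), 29 exceeded this level on both arrays, 2 only without CSF1 (Ciita and H2-Oa) and 10 on neither (H2-D4, H2-M9, H2-M10.1, H2-Q2, H2-Q10, H2-T3, H2-T18, H2-Ea, H2-Eb2 and H2-Ob). The 10 have no ratio here, although a second H2-T3 probe set read 146 units without CSF1 and 27.9 units with it. Of the 15 class I heavy chain genes 8 were above background on both arrays, of the 11 class II genes 7, and of the assembly and costimulation genes all 9 and all 3. The plot of signals on both arrays shows where the member probe sets lie among all others.

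**Figure D1:**
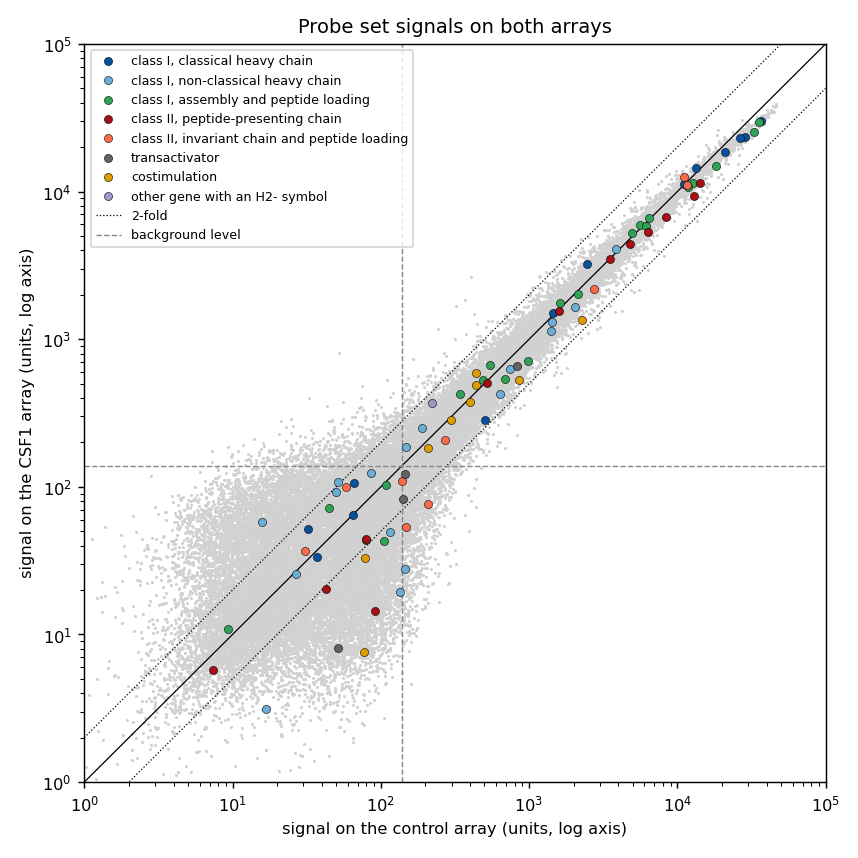
Signal of each probe set on the control array (x axis, units, log scale) and the CSF1 array (y axis, units, log scale), with all probe sets above 1 unit on both arrays in grey and the 86 member probe sets coloured by role. Above the background level of 138.96 units on both arrays, the member probe sets lie inside the dotted 2-fold lines.

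Differences between the arrays were small throughout the group. Past 1.5-fold lay 1 of the 31 measured genes in the lower direction, the costimulatory ligand gene Cd86, and 1 in the higher direction, H2-Ke6. Across all 11045 genes above background on at least 1 array, 5.38% were lower and 5.89% higher by this much, so the members' shares were no larger than those of all genes. Past 2-fold lay 0 of the 31 members in either direction, against 0.96% of all measured genes higher and 0.715% lower. Of the 29 members above background on both arrays, 19 were lower and 10 higher with CSF1, with a median of -0.13, beside 4733 lower and 4929 higher of 9662 such genes in all, with a median of 0.01. Counted by probe set, 3 of the 54 members above background on both arrays were at least 1.5-fold lower and 1 at least 1.5-fold higher, beside 5.41% and 5.32% of all such single-gene probe sets. The ratios of probe sets of one gene disagreed with a pooled SD of 0.29 (log2) over 3809 genes. The SD between probe sets of the spiked control RNAs was 0.13. Neither measure covers cultures or animals.

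**Figure D2:**
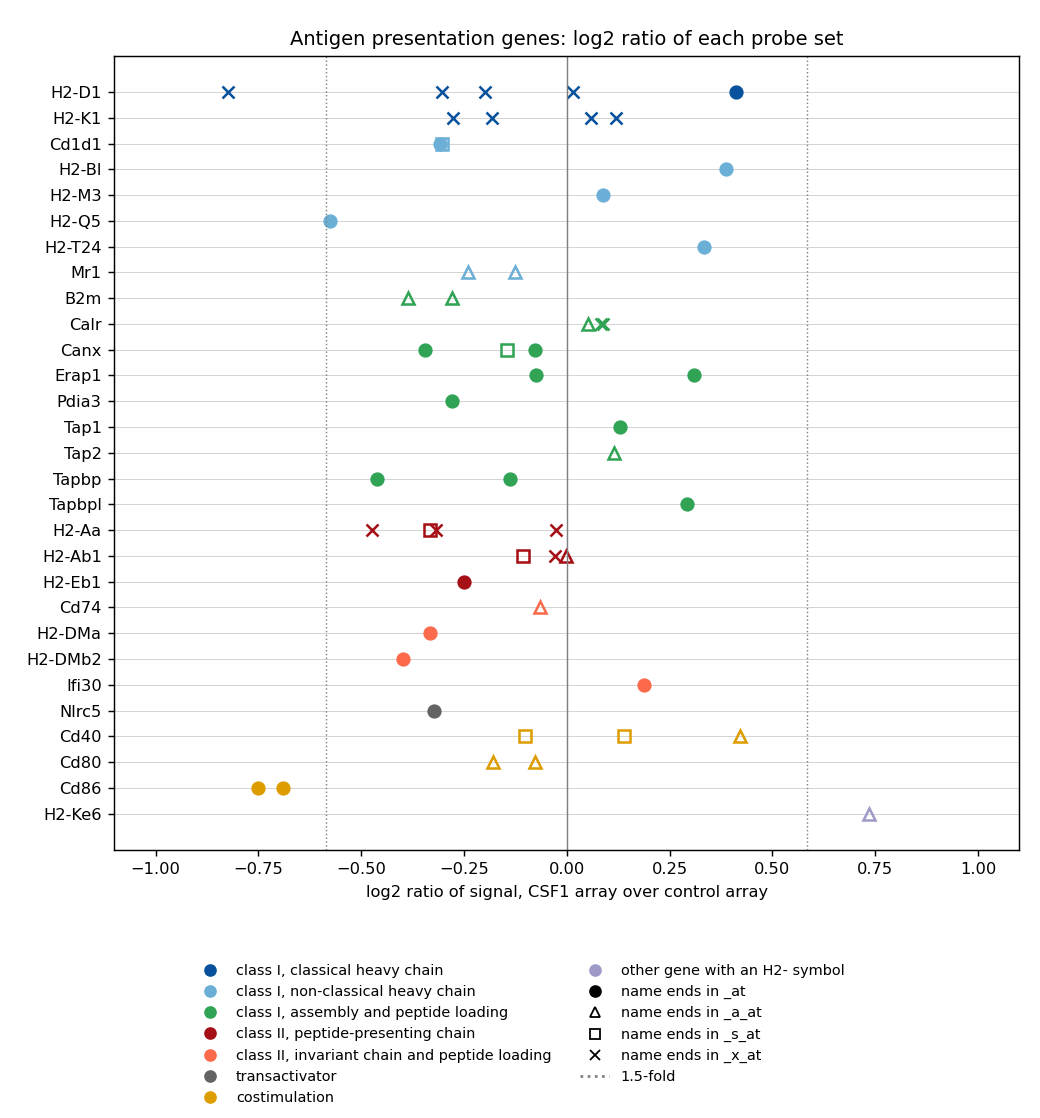
Log2 ratio of signal with CSF1 over signal without it (x axis) for the 54 member probe sets above background on both arrays, by gene (y axis), coloured by role, with the marker giving the ending of the probe set's name. Outside the dotted 1.5-fold lines lie 1 H2-D1 probe set and both of Cd86 on the lower side and H2-Ke6 on the higher side.

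The classical class I heavy chains H2-K1 and H2-D1, which present peptides to CD8 T cells, were read by 13 probe sets, and 11 of these have names ending in _x_at, the manufacturer's mark for probes that can also match other transcripts. On one probe set H2-K1 read 36477 units without CSF1 and 30089.9 units with it (-0.28). Its other 3 probe sets read 20949.9 and 18453 units (-0.18), 13314.5 and 14469.8 units (0.12), and 1447 and 1508 units (0.06). The 4 probe sets of H2-K1, all of the _x_at kind, therefore fell on both sides of 0, with a mean of -0.07 ± 0.19 (SD between probe sets).

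H2-D1 was read less uniformly. Its probe sets with the highest signals read 28736 and 23304 units (-0.30), and 26420.4 and 23011 units (-0.20). A further _x_at probe set read 11074 and 11181 units (0.01). The single H2-D1 probe set above background without a shared mark went the other way, with 2444 units without CSF1 and 3249 units with it (0.41), while another _x_at probe set read 502 and 284 units (-0.82). The mean over these 5 was -0.18 ± 0.45 (SD between probe sets), so no direction holds across them. The other 4 H2-D1 probe sets were below background on both arrays, at 32.5 to 106 units, although they carry the same gene symbol.

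**Figure D3:**
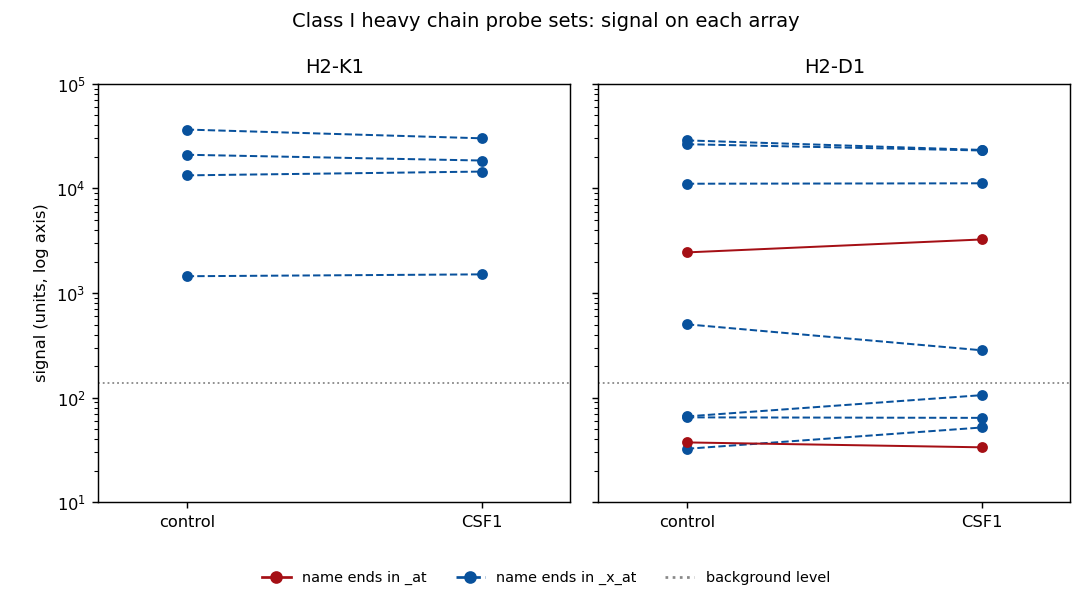
Signal (y axis, units, log scale) of each H2-K1 probe set (left) and H2-D1 probe set (right) on the control and CSF1 arrays, with 1 line per probe set, red where its name ends in _at and dashed blue where it ends in _x_at. Probe sets annotated to H2-D1 span from below the background level of 138.96 units to 28736 units, and the lines run in both directions.

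Among the non-classical class I genes, Cd1d1, which presents lipids to natural killer T cells, was lower on both of its probe sets, with 2031 and 1645 units on one and 1410.5 and 1139 units on the other (-0.30 and -0.31). Mr1, which presents vitamin B metabolites to mucosal-associated invariant T cells, was at 1426 and 1307 units (-0.13) and at 748 and 633 units (-0.24). H2-M3, which presents N-formylated peptides, read 3842 and 4082 units (0.09). These 3 genes differed between the arrays by about 0.29, the SD between probe sets pooled over 3809 genes, or less. Their own probe sets lay closer together, with a mean of -0.31 ± 0.0028 for Cd1d1 and -0.18 ± 0.08 for Mr1 (SD between probe sets). H2-M3 has 1 probe set. H2-Q5 read 638 and 428 units (-0.58, or 1.49-fold lower) on 1 probe set, while its other probe set was below background on both arrays. H2-Bl (190.2 and 249 units, 0.39) and H2-T24 (148 and 187 units, 0.33) were close to the background level. Under the 95th percentile of the background genes, 191.42 units, lay H2-Bl on the control array and H2-T24 on both arrays.

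Several class I genes could be seen only through probe sets annotated to more than 1 gene, which are not counted among the 86. There were 16 such probe sets with at least 1 member symbol, those of class II loading genes included. Of these, 9 were above background on both arrays, 7 of them lower with CSF1. Among the 7 were the probe sets shared by the class II loading genes H2-DMb1 and H2-DMb2 (-0.52 and -0.67). A probe set of H2-T23, the gene of Qa-1, shared with H2-T-ps, read 19932 and 17283 units (-0.21), and that of H2-T9, H2-T10 and H2-T22 read 7889.8 and 7278 units (-0.12). The probe set of H2-Q7 and H2-Q9 read 3701 and 2729 units (-0.44), while that of H2-Q6 and H2-Q8 read 4036 and 4021 units (-0.0054). A probe set common to H2-K1 and H2-D1 read 19785 and 18682 units (-0.08). The 2 that were higher were a second H2-T23 probe set (0.16) and one of H2-Q4, H2-Q6 and H2-Q8 (0.47), at 197 and 220.1 units and 348 and 482 units. Another 2 were above background on 1 array only. That of Gm38417, H2-Q2 and H2-D1 read 113 units without CSF1 and 298 units with it, or at least 2.15-fold higher, and that of Ifi30 and Pik3r2 read 163 and 46.1 units, or at least 1.17-fold lower.

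Class I assembly genes went both ways by small amounts. The light chain B2m was lower on both probe sets, at 35744 and 29449.5 units (-0.28) and 32910.3 and 25192 units (-0.39), although the first was at 0.0048 under quantile normalization and at 0.015 with centring on spiked control RNAs. The peptide transporter genes were slightly higher, Tap1 with 1606 and 1757 units (0.13) and Tap2 with 487 and 527 units (0.11). Tapbp (tapasin), which holds the heavy chain at the transporter, read 11858 and 10775 units (-0.14), and 980.03 and 711 units on its second probe set (-0.46). Its relative Tapbpl, a peptide editor outside the loading complex, read 542 and 664 units (0.29), with its other probe set below background. So, under the deposited scaling, the transporter genes were on one side of 0 and B2m and tapasin on the other, each within 1.5-fold.

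The trimming peptidase gene Erap1 had probe sets on either side of 0, at 2139 and 2029 units (-0.08) and 342 and 424 units (0.31). The chaperone gene Calr had 6414 and 6653 units (0.05), and its 3 probe sets had a mean of 0.07 ± 0.02 (SD between probe sets). Canx, the membrane-bound chaperone, read 12693 and 11471 units (-0.15), with a mean of -0.19 ± 0.14 over 3 probe sets. Pdia3, the oxidoreductase of the loading complex, read 18172 and 14966 units (-0.28). Of the 9 assembly genes 5 were lower and 4 higher, with a median of -0.08.

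Class II peptide-presenting chains leaned lower. H2-Aa, the alpha chain of I-A, read 14162 units without CSF1 and 11357 units with it (-0.32). Its other 3 probe sets gave 13057 and 9396 units (-0.47), 8419.6 and 6689 units (-0.33) and 517 and 507 units (-0.03), so all 4 were below 0. H2-Ab1, the beta chain that pairs with it, was nearly level, at 4767 and 4424 units (-0.11), 3495 and 3492 units (-0.0011) and 1588 and 1557 units (-0.03). H2-Eb1, a beta chain of I-E, read 6308 and 5306 units (-0.25) on its single probe set. The alpha and beta chain genes of I-A thus had means of -0.29 ± 0.19 and -0.05 ± 0.06 (SD between probe sets), and all 8 probe sets of the 3 genes were below 0, beside 7880 of 15578 single-gene probe sets above background on both arrays.

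C57BL6 mice carry the H-2b haplotype, in which the I-E alpha chain gene H2-Ea is not transcribed because its promoter is deleted. All 3 H2-Ea probe sets were below background on both arrays, with 7.34 to 92.1 units without CSF1 and 5.76 to 44.6 units with it. H2-Eb2 was also below background, at 42.5 and 20.4 units.

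Of the 6 class II loading genes, H2-DMa, H2-DMb2 and Cd74 read lower and Ifi30 higher, each within 1.5-fold on its brightest probe set, while H2-Oa and H2-Ob were near or below background. H2-DMa, the alpha chain of the peptide exchanger H2-DM, read 2744 and 2179.7 units (-0.33). Of the beta chains, H2-DMb2 read 272 and 206 units (-0.40) on its probe set with the highest signal. Its _x_at probe set, below background with CSF1, read 209 and 76.2 units, or at least 1.50-fold lower. Its remaining probe set was below background on both arrays, at 58.5 and 100 units. The probe sets that H2-DMb1 and H2-DMb2 share read 1122 and 783 units (-0.52) and 1548 and 975 units (-0.67). The latter was 1.59-fold lower. The invariant chain Cd74 stood at 11577.5 and 11071 units (-0.06), and the lysosomal thiol reductase gene Ifi30 at 11085 and 12635.5 units (0.19). H2-Oa, which inhibits H2-DM and is known mainly from B cells and dendritic cells, read 147 and 53.4 units, both near or below the background level, and its partner H2-Ob 30.8 and 36.8 units. H2-DM subunit genes were therefore lower on every probe set above background on both arrays, while the invariant chain stood at -0.06.

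Of the transactivator genes, Nlrc5 was above background on both arrays and Ciita was weakly measured. Nlrc5, which drives class I promoters, read 827 and 661 units (-0.32) on 1 probe set. Ciita, which drives class II promoters, read 146 and 122 units and 142 and 82.2 units on the probe sets that exceeded background in untreated cells, and 51.2 and 8.09 units on the third. Both arrays were thus at or near background for Ciita, and no ratio is given.

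Costimulation genes did not move together. Cd86, a ligand of CD28 and CTLA-4, read 2275 units without CSF1 and 1353 units with it (-0.75, or 1.68-fold lower), and on its second probe set 859 and 532 units (-0.69, 1.61-fold lower). Its mean was -0.72 ± 0.04 (SD between 2 probe sets), so both probe sets agreed and neither has a shared mark. Cd80, the other ligand of CD28, read 299 and 284 units (-0.08) and 207 and 183 units (-0.18), with its other 2 probe sets below background. Cd40, the receptor of CD40 ligand, read 442 and 592 units (0.42), 442 and 486 units (0.14) and 403 and 376 units (-0.10), with a mean of 0.15 ± 0.26 (SD between probe sets). Cd86 was lower by more than the pooled SD between probe sets, and the means of Cd80 (-0.13) and Cd40 were within it.

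H2-Ke6, which encodes a hydroxysteroid dehydrogenase family enzyme and shares only the MHC-linked name, read 222 units without CSF1 and 369 units with it (0.73, or 1.66-fold higher) on 1 probe set.

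Set side by side, the medians over genes above background on both arrays were -0.20 for 8 class I heavy chain genes (5 lower, 3 higher), -0.08 for the 9 class I assembly genes, -0.25 for 7 class II genes (6 lower, 1 higher) and -0.08 for 3 costimulation genes (2 lower, 1 higher). Genes overlapped between these groups, which ranged from -0.58 to 0.39, from -0.28 to 0.29, from -0.40 to 0.19 and from -0.75 to 0.42. Both ends of the class I heavy chain range were genes listed as transcribed pseudogenes, H2-Q5 (-0.58) and H2-Bl (0.39), which also count in that median. The medians lay closer to each other than the pooled SD between probe sets of 0.29. That SD is for probe sets of the same gene, not for medians over genes, so it does not show that the groups are alike. With 1 array per group the differences between the medians were not tested. The class I median changed sign with the choice of probe sets. On probe sets ending in _at with no letter mark (_a_at, _s_at and _x_at left out) it was 0.21 over 6 genes. H2-K1 and Mr1 have no such probe set, those of Mr1 ending in _a_at, and H2-D1 is then read at 0.41. With only the _x_at and _s_at endings left out the class I heavy chain median was 0.087. Averaged over all probe sets of a gene, those below background included, it was 0.031, and averaged over those above background on both arrays it was -0.13. The last choice put the class I assembly median above 0, at 0.07. Under quantile normalization the class I heavy chain median was -0.07, and the class I assembly median, there the ratio of B2m, was 0.0048.

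The hybridisation spikes, control RNAs added in equal amount, were themselves at -0.29 ± 0.13 (SD between 18 probe sets). Centred on them, the median of all genes was 0.28, and the 4 medians became 0.093, 0.22, 0.045 and 0.22 in the order above. All 4 then stood above 0 and below the median of all genes. This centring moves every CSF1 value by the same amount. The order against all genes was therefore nearly fixed beforehand and is no separate check. Genes with signals above 10000 units on both arrays leaned lower as a whole. Of 352 such genes 276 were below 0, with a median of -0.12, and of the 9 members among them 8 were below 0, with a median of -0.28.

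**Figure D4:**
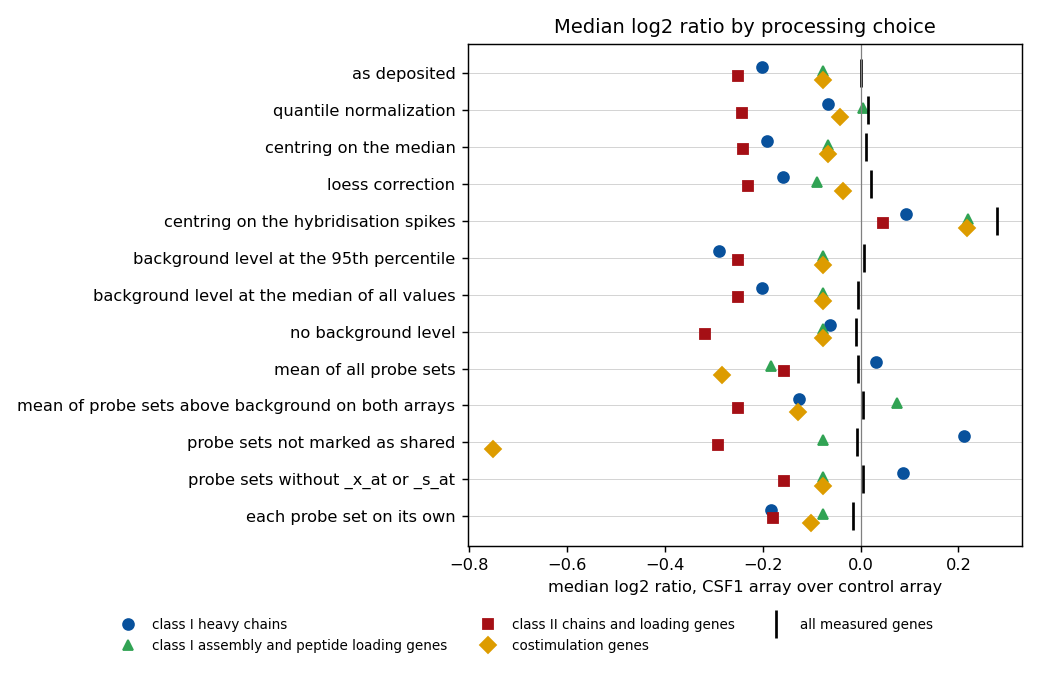
Median log2 ratio of signal with over without CSF1 (x axis) for 4 groups of genes, under the deposited scaling and 12 other processing choices (y axis), with the median of all measured genes as a black bar. Medians are over genes above background on both arrays, except that the line without a background level takes in every gene of a group and the line of each probe set on its own counts probe sets. The class II median stays to the left of the black bar in every line. The class I heavy chain median lies to its right when all probe sets of a gene are averaged, those below background included, or when probe sets are left out by the ending of their names. The line of probe sets not marked as shared leaves out _a_at, _s_at and _x_at.

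Other genes of the pathway were read on lists written for this purpose. Past 1.5-fold lay 5.38% of all 11045 measured genes lower and 5.89% higher, so lists this short would hold few or none. Their counts past 1.5-fold are therefore no result about the pathway. Of the immunoproteasome and PA28 genes, which shape class I peptides, 0 of 4 were past 1.5-fold on their brightest probe sets, and the largest ratios there were those of the activator gene Psme1 (5672 and 7569 units, 0.42) and the subunit gene Psmb9 (3719 and 4008 units, 0.11). The subunit gene Psmb8 was at -0.04 on its brightest probe set and at 0.98 on its other one above background. Of the 7 genes of class II promoter factors, 0 were past 1.5-fold. The RFX subunit gene Rfxank, below background on the CSF1 array, was at least 1.49-fold lower, and Creb1 read 1261 and 900.8 units (-0.49), with its 4 probe sets ranging from -0.49 to 0.39. Of 7 measured interferon gamma signalling genes 0 were past 1.5-fold, with the kinase gene Jak2 at -0.43 and the transcription factor gene Irf8 at 0.17. All 8 genes of endosomal proteases and class II turnover were below 0 on their brightest probe sets, with a median of -0.19 and 0 past 1.5-fold. All but Marchf1 read above 10000 units on both arrays, the range in which 276 of 352 genes were below 0. Ctss, the cathepsin that cleaves the invariant chain, read 44198 and 34460.4 units (-0.36), and Ctsb read 43994 and 35153 units (-0.32), with another Ctsb probe set at 0.20. Ctsl was at -0.29 on its brightest probe set and at 0.23 on its other one.

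Beside 5.38% lower and 5.89% higher of all measured genes, 1 of 12 measured genes of other costimulatory and coinhibitory ligands was past 1.5-fold. This was Cd274, the gene of the coinhibitory ligand PD-L1, with 5079.9 units without CSF1 and 3173 units with it (-0.68), on a single probe set without a shared mark. The gene Pdcd1lg2 of its relative PD-L2 was at 144 and 70.7 units, at or below background.

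Markers of other cells moved between the arrays as well. Of 9 macrophage markers 7 were lower, with a median of -0.21, and their summed signal was 147487 units without CSF1 and 122347 units with it. Among them Cd68 was at -0.41, Lyz2 at -0.37 and the efferocytosis receptor gene Mertk at -0.75. The 2 that were higher were Cd14 at 0.05 and Mrc1 at 0.16. Adgre1, Cd14, Cd68, Csf1r and Lyz2 read above 10000 units on both arrays, the range in which 276 of 352 genes were below 0. Of 10 fibroblast and mesothelial markers found, 8 were above background on both arrays and all 8 were higher on their brightest probe sets, with a median of 0.31 and a summed signal of 51603 and 65401 units. Col1a2 was at 0.22, Col3a1 at 0.39, Dcn at 0.59 and Pdgfrb at 0.78, while the mesothelial marker Msln was below background on both arrays. Second probe sets went the other way for Col1a1 (-0.25, beside 0.12) and Pdgfra (-0.58, beside 0.32). In bulk RNA, fewer cells of a type and less RNA per cell cannot be told apart, and the part of this shift in the ratios of the antigen presentation genes was not tested.

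Cells known for high class II were little represented. Of 10 dendritic cell markers found, Flt3, Xcr1, Ccr7, Cd209a, Dpp4, Itgae and Siglech were below background on both arrays. Itgax, which macrophages also express, read 8003.5 and 6854 units (-0.22), Batf3 306 and 395 units (0.37) and Zbtb46 318 and 144 units (-1.14). The summed signal of the list was 8968 and 7794 units. Of 7 B cell markers found, the summed signal was 743 and 611 units. Ms4a1 read 151 and 153 units and Cd79b 216 and 70.3 units, the latter at least 1.56-fold lower, Cd79a 155 and 50.3 units, and Pax5 70.3 and 175 units, all near or below the background level. The part of these cells in the class II ratios was not tested.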

How the data were processed

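The authors deposited 1 linear intensity value per probe set and array, made with GeneSpring 6.2 per the series' design text. The summarization method and any detection calls are not given in the sources used here. With 2% trimmed at each end, both arrays have the same mean signal (500.003 units), and each array held 45101 probe sets, of which 34958 had 1 gene symbol in the platform annotation, 932 several and 9211 none. All 41 member symbols matched a RefSeq gene by Entrez ID.

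Values were moved to log2 without further scaling. A gene was represented by its brightest probe set. The background level was set from 92 genes known from other tissues (144 probe sets), at the 90th percentile of their signals, and lower values were raised to it. Above it were 42.6% (control) and 40.9% (CSF1) of all probe sets. Since each group has 1 array, nothing was tested. The gene-level step was tested on simulated data. Named were all members, and of each other list the genes past 1.5-fold and otherwise the 2 largest ratios (for cell type markers, the 2 highest signals), with further markers named after their values were seen. Members and lists were chosen with earlier results of these data known.

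As alternatives the arrays were quantile normalized, centred on the median or the spikes, or given a loess correction (span 0.3); 3 other background choices and 5 other choices of probe sets were also tried, 1 of them (the mean of those above background on both arrays) chosen after seeing the data. Software was pandas 2.3.3 and numpy 2.4.6 under Python 3.11.15, with statsmodels 0.14.6 for loess, scipy 1.17.1 for trimmed means and matplotlib 3.10.9 for plots.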

Additional observations from a re-analysis of the deposited data

How the results depend on the processing

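No paired analysis was possible because each group has 1 array. Of the 48 group medians recomputed, those that moved by more than the pooled SD between probe sets were the 4 under centring on the spikes (class I heavy chains 0.093, class I assembly 0.22, class II 0.045, costimulation 0.22) and, on probe sets ending in _at with no letter mark, class I heavy chains (0.21) and costimulation (-0.75, from Cd86 alone). With only _x_at and _s_at left out, the costimulation median was -0.08. Spike centring subtracts the spike mean of -0.2945 from every CSF1 value, in size just past the pooled SD of 0.2913. The 4 moves under it therefore follow from that shift alone. The count of members at least 1.5-fold higher, 1 as deposited, was 5 of 32 with spike centring, beside 18.3% of all measured genes. It was 4 of 41 with no background level, beside 16.4%. It was 0 of 21 with the _a_at, _s_at and _x_at endings left out, beside 5.94%. With only _x_at and _s_at left out this count stayed at 1. The count at least 1.5-fold lower, also 1, was 2 of 34 with background set to the overall median signal, beside 7.71% of all measured genes. It was 2 of 28 with all probe sets averaged, beside 6.65%. With each probe set on its own it was 4 of 60, beside 6.33% of probe sets. With no background level it was 6 of 41, beside 18.1%, and with spike centring 0 of 32, beside 1.96%. Past 2-fold, 0 as deposited in either direction, was 1 higher with spike centring, beside 3.42% of all measured genes. With no background level 2 were higher and 4 lower, beside 9.58% and 10.6%. With all probe sets averaged 1 was lower, beside 1.41%. That 1 was H2-Q5 (-1.08), whose average takes in a probe set below background on both arrays (135 and 19.5 units). Averaging only probe sets above background on both arrays, chosen after seeing the data, gave 0 of 29 past 2-fold. Past 1.5-fold it gave 1 in each direction, beside 4.82% of all measured genes higher and 4.09% lower. Quantile normalization moved the class I assembly median to 0.0048. Cd86 was lower under all 11 alternatives, between -0.77 and -0.46, the latter with spike centring.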

Other observations

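Markers of lymphocytes other than B cells and of granulocytes and mast cells are not part of any comparison above. Of 8 T and NK cell markers found, 5 were above background on both arrays, with a summed signal of 1656 units without CSF1 and 1604 units with it, and Cd3g was at -0.04 and Cd3d at 0.35. Of 9 eosinophil and mast cell markers found, 4 were above background on both arrays and all 4 were lower, with Cpa3, a mast cell protease gene, at -0.20 and Tpsb2, a tryptase gene, at -0.43. Of 8 neutrophil markers found, S100a8 was above background, at 0.18, while the others, Ngp among them, were below it on both arrays.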
